A study of Homo sapiens with 9 samples.

Results

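The genes described here encode the machinery that copies DNA in S phase: the licensing factors and helicase of replication origins, the replication fork, nucleotide synthesis, chromatin assembly and the transcription factor E2F1. They were chosen by name from a list of 39 genes, and all 39 were found among the 15983 genes of the deposited table. The study treated KGN cells, a line grown from a human granulosa cell tumour and used as a model of the ovarian granulosa cell, and asked how they respond to high insulin. All cells were kept in medium with serum, fasted for 12 h and given 72 h of treatment. The groups were solvent (control, 3 libraries), 0.5 µg/ml insulin (the lower dose, 3 libraries) and 1 µg/ml insulin (the higher dose, 3 libraries). KGN is a single tumour line, so the libraries hold no variation between donors. Whether the libraries of a group are separate cultures is not in the labels, and p-values therefore measure a spread between samples that may be technical. Libraries are named by their group and by the number in their title, to which the labels give no meaning.

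A human cell prepares its origins in G1, when the origin recognition complex (ORC), CDC6 and CDT1 load the ring of MCM2 to MCM7 onto DNA. At the start of S phase the ring is turned into the active helicase by CDC45 and the GINS complex, and DNA polymerases alpha, delta and epsilon copy the strands with the sliding clamp PCNA, which RFC loads. Many of these genes are transcribed together at the border of G1 and S by E2F factors, which the RB protein holds in check in resting cells. Growth factors, insulin among them, act on this step through cyclin D and its kinases.

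Promoter sequence shows one feature that many of these genes share. RefSeq promoters of GRCh38.p14, from 250 bases before to 50 bases after the first start listed for a gene, were matched for 35 of the 39 genes, all but MCM4, MCM5, GINS4 and POLD3. They were searched on both strands for TTTCCCGC, TTTCGCGC, TTTGCCGC and TTTGGCGC, the letters of the classical E2F element. The letters occurred in 20 of the 35 promoters (57.1%), against 908 of 27305 promoters of all genes (3.33%) and 703 of 15843 of coding genes (4.44%). In 14 of the 20 a match lay before the start. CCAAT occurred in 21 of the 35 (60%), against 35.7% of all promoters. The elements TTTGAA and TTCGAA, known from promoters of mitotic genes, occurred in 2 of the 35 (5.71%), against 16.6% of all promoters. A match is only a run of letters and shows no binding. The 6 windows of 60 bases that follow are from the strand of the gene and read 5′ to 3′. Values of these genes, all but CDT1, are described further on. Capitals mark the matched letters, including 2 overlapping matches in MCM6 and 2 separate ones in E2F1.
MCM6 (chr2:135876496-135876555, minus strand): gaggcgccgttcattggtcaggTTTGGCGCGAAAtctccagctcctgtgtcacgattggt
MCM7 (chr7:100101398-100101457, minus strand): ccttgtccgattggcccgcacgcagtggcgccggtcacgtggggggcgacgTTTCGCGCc
CDT1 (chr16:88803728-88803787, plus strand): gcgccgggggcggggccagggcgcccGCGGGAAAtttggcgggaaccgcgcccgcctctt
PCNA (chr20:5126648-5126707, minus strand): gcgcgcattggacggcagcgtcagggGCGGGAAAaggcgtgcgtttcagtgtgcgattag
UHRF1 (chr19:4909441-4909500, plus strand): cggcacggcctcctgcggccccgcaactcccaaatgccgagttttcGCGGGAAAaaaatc
E2F1 (chr20:33686386-33686445, minus strand): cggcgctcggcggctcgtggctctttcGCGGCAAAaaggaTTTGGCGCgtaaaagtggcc

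All 39 genes had counts in every library and all passed the filter on low counts, as did 12665 genes of the table. Library totals ran from 18965722 to 20446405 counts, with control 1 the lowest. The count of a member in a library ranged from 81 (POLE2) to 2497 (RRM1). Levels between genes are given in FPKM, the deposited counts scaled by gene length and library size, as the mean over all libraries. The median member stood at 7.93 FPKM, against 6.83 FPKM over all tested genes. PCNA was the highest at 71.8 ± 4.09 FPKM, followed by TK1, the thymidine kinase of S phase, at 37.9 ± 4.01 FPKM (SD, n = 9). RRM1, the large subunit of ribonucleotide reductase, followed at 33.2 ± 2.19 FPKM (SD, n = 9), with MCM7 at 29.6 ± 2.83 and the thymidylate synthase gene TYMS at 29.1 ± 2.90 FPKM (SD, n = 9). The lowest in FPKM was POLA1, the catalytic subunit of polymerase alpha, at 1.45 ± 0.194 FPKM (SD, n = 9). Next came CLSPN, a checkpoint adaptor at the fork, at 1.79 ± 0.151 FPKM (SD, n = 9). Both ranks depend on the lengths behind the FPKM values. In counts scaled to library size (CPM), POLE2 was lowest at a mean of 5.16, with POLA1 at 13.4 and CLSPN at 16.6. MCM10 had 10.3 CPM but stood higher in FPKM, at 2.25. Longest coding transcripts had 4587 bases in MCM10, 4769 in CLSPN and 5486 in POLA1. Lengths in that proportion would place MCM10 below both, so the lengths behind the FPKM values differ from them. RNA from the whole culture was measured, so more cells in S phase and more RNA per cell cannot be told apart in any of these values.

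Genes of one complex did not stand at one level. Among the 6 subunits of the MCM ring, MCM7 stood highest and MCM5 lowest at 9.34 FPKM, a 3.17-fold span that ran from 2.69-fold to 3.51-fold in single libraries. MCM4, MCM3, MCM2 and MCM6 lay between them at 21.2, 18.8, 12.6 and 9.67 FPKM. The 4 members from the clamp loader spanned more, from RFC3 at 2.23 to RFC4 at 14.6 FPKM (6.53-fold). RFC1, a further subunit that is not a member, stood at 14.8 FPKM. The span from RFC3 to RFC4 rests largely on the gene lengths behind the FPKM values. In counts scaled to library size alone (CPM), RFC3 stood above RFC4, at means of 25.1 and 19.9. Their longest coding transcripts had 2402 and 1448 bases. Lengths in that proportion would give a much smaller span, so the lengths behind the FPKM values differ from them. In the chromatin assembly factor, CHAF1A stood at 7.81 and CHAF1B at 2.19 FPKM. In polymerase epsilon the members POLE and POLE2 stood at 2.61 and 2.65 FPKM. Its subunits POLE3 and POLE4, which are not members, stood far higher, at 26.2 and 23 FPKM. In the GINS complex the levels ran from 2.25 FPKM (GINS4) to 5.03 FPKM (GINS1). Some levels are uncertain, because strand setting and treatment of multiply matching reads were not given in the sources used here. Transcripts of 9 members shared more than 10% of their 50-base stretches with another gene. They were POLA2 (55.2%), TYMS (55.1%, mostly with ENOSF1, which overlaps it on the opposite strand), GINS4 (30.1%), RRM2 (29.7%), PRIM1 (28.8%), MCM2 (27.2%), UHRF1 (26.0%), GINS3 (15.6%) and POLD1 (10.9%).

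**Figure D1:**
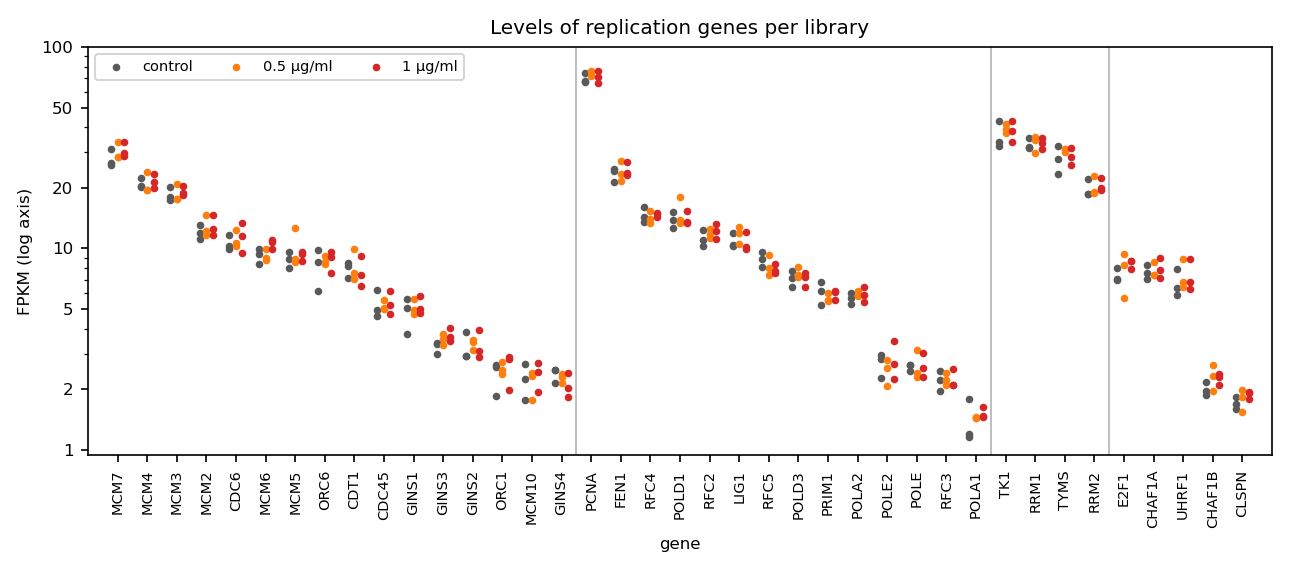
Expression of the 39 genes in FPKM on a log axis, ordered by role, with a point per library (n = 9) coloured by group. PCNA stands highest (mean 71.8 FPKM) and POLA1 lowest (mean 1.45 FPKM), and the points of the 3 groups lie over each other for nearly every gene.

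Set against control, none of the 39 genes passed the test at the lower dose, and their differences were small. The edgeR quasi-likelihood test with Benjamini-Hochberg adjustment called 0% of 12665 genes (0 at an adjusted p under 0.05), and DESeq2 also called 0. An unadjusted p under 0.05 was reached by 770 genes in edgeR (6.08%), and the members held 0 of the 770. In DESeq2 it was reached by 573 genes. In the dose comparisons DESeq2 was run without the count filter, on 15981 genes, so its counts have a different base from those of edgeR. Intervals are at 95%. In the members 32 of 39 fold changes stood above 0, with a median of 0.07, against 51.9% and a median of 0.00 over all tested genes. No member stood wholly above or wholly below control, where 5.1% of all tested genes stood above and 5.61% below. All 39 intervals lay within 1.5-fold of no change in either direction, between 0.715-fold (POLE2) and 1.37-fold (CHAF1B), as did 87.5% of the intervals of all tested genes.

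CHAF1B, a subunit of the chromatin assembly factor, had the smallest p. It was measured at 16.1, 14.0 and 11.9 CPM (counts scaled to library size by TMM) in lower-dose libraries 1, 2 and 3 and 11.7, 11.3 and 13.0 CPM in control. Lower dose 1 and 2 stood above all control values and lower dose 3 did not. The log2 fold change was 0.22 ± 0.11 (SE, edgeR unadjusted p = 0.0584, adjusted p = 0.792). PCNA had 101, 106 and 107 CPM at the lower dose and 104, 93.1 and 94.5 CPM in control, a log2 fold change of 0.11 ± 0.06 (SE, edgeR adjusted p = 0.792). TYMS had 52.0, 53.8 and 53.7 CPM at the lower dose and 55.3, 47.9 and 40.1 CPM in control. Its 3 lower-dose values lay within the wide range of control, and the log2 fold change was 0.16 ± 0.09 (SE, edgeR adjusted p = 0.808).

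For some members 1 library made much of the difference. MCM5 had 52.1, 36.4 and 35.2 CPM at the lower dose and 39.3, 36.5 and 32.6 CPM in control: lower dose 1 alone stood above all control values, and the log2 fold change of 0.19 ± 0.11 (SE) became -0.01 without it. POLD1, the catalytic subunit of polymerase delta, had 70.2, 51.4 and 53.4 CPM at the lower dose and 58.3, 52.9 and 48.1 CPM in control, and its log2 fold change of 0.14 ± 0.10 (SE) became -0.02 without lower dose 1. Where library numbers stayed equal between groups, MCM5 and POLD1 kept their sign. A fit with the library number added gave 0.18 for MCM5 and 0.13 for POLD1. With libraries 2 and 3 alone each stood at 0.05. E2F1 was split widest, with 25.5, 15.4 and 22.3 CPM at the lower dose, the highest and the lowest of its 9 values. For MCM7 the log2 fold change was 0.12 ± 0.08 (SE), and for MCM2 0.10 ± 0.09 (SE). MCM3, MCM4 and MCM6 stood at 0.02 ± 0.07, 0.01 ± 0.08 and 0.00 ± 0.07, and POLA1 at 0.07 ± 0.13 (SE).

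At the higher dose, too, none of the 39 genes passed the test against control. The edgeR test called 0% of 12665 genes and DESeq2 called 0. An unadjusted p under 0.05 was reached by 298 genes in edgeR (2.35%), 1 of them a member, and by 173 in DESeq2. Both insulin groups were set against the same control libraries, so their directions are not independent of each other. The log2 fold change was above 0 in 33 of 39 members and had a median of 0.06, against 49.8% above 0 and a median of 0.00 over all tested genes. All 39 intervals lay within 1.5-fold, between 0.736-fold (GINS4) and 1.36-fold (ORC1), as did 87.9% of all tested genes.

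The member with the smallest p was MCM6, a subunit of the MCM ring. Its gene lies on chromosome 2 from 135839626 to 135876426 on the minus strand (hg38, GENCODE 29). MCM6 was measured at 40.4, 37.0 and 41.1 CPM in higher-dose libraries 1, 2 and 3, against 37.3, 31.5 and 35.2 CPM in control. All 3 higher-dose values were near or above the highest control value, but higher dose 2 lay just under control 1, so the groups overlapped. The log2 fold change was 0.19 ± 0.07 (SE), or 1.14-fold with an interval from 1.03 to 1.27, at an unadjusted p of 0.018 and an adjusted p of 1.00 in edgeR. GINS3, a subunit of the GINS complex, was the 1 member whose higher-dose libraries all stood above control. It had 9.31, 7.99 and 8.38 CPM at the higher dose and 7.77, 7.85 and 6.87 CPM in control. The margin was 0.19 ± 0.12 on the log2 scale (SE, edgeR adjusted p = 1.00). Over all tested genes 3.81% stood above control in every library and 3.92% below, so 1 of 39 members is no larger a share, and 0 members stood below.

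The other subunits of the ring differed less. MCM7 had 99.2, 84.5 and 87.2 CPM at the higher dose and 91.4, 78.3 and 76.4 CPM in control, a log2 fold change of 0.14 ± 0.08 (SE, edgeR adjusted p = 1.00). For MCM2, MCM3, MCM4 and MCM5 the log2 fold changes were 0.09 ± 0.09, 0.05 ± 0.07, 0.04 ± 0.07 and 0.07 ± 0.11 (SE). PCNA averaged 99.3 ± 6.92 CPM at the higher dose and 97.3 ± 6.08 CPM in control (SD, n = 3 each), a log2 fold change of 0.03 ± 0.06 (SE). E2F1, the transcription factor, had 23.1, 23.1 and 21.3 CPM at the higher dose and 21.5, 19 and 18.8 CPM in control. Only higher dose 3 lay below control 1, and the log2 fold change was 0.19 ± 0.12 (SE, edgeR adjusted p = 1.00). CHAF1B stood at 0.18 ± 0.11 and RFC5, a small clamp loader subunit, at -0.16 ± 0.10 on the log2 scale (SE). POLA1, the member of lowest FPKM, stood at 0.13 ± 0.13 and TK1 at 0.08 ± 0.09 (SE).

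**Figure D2:**
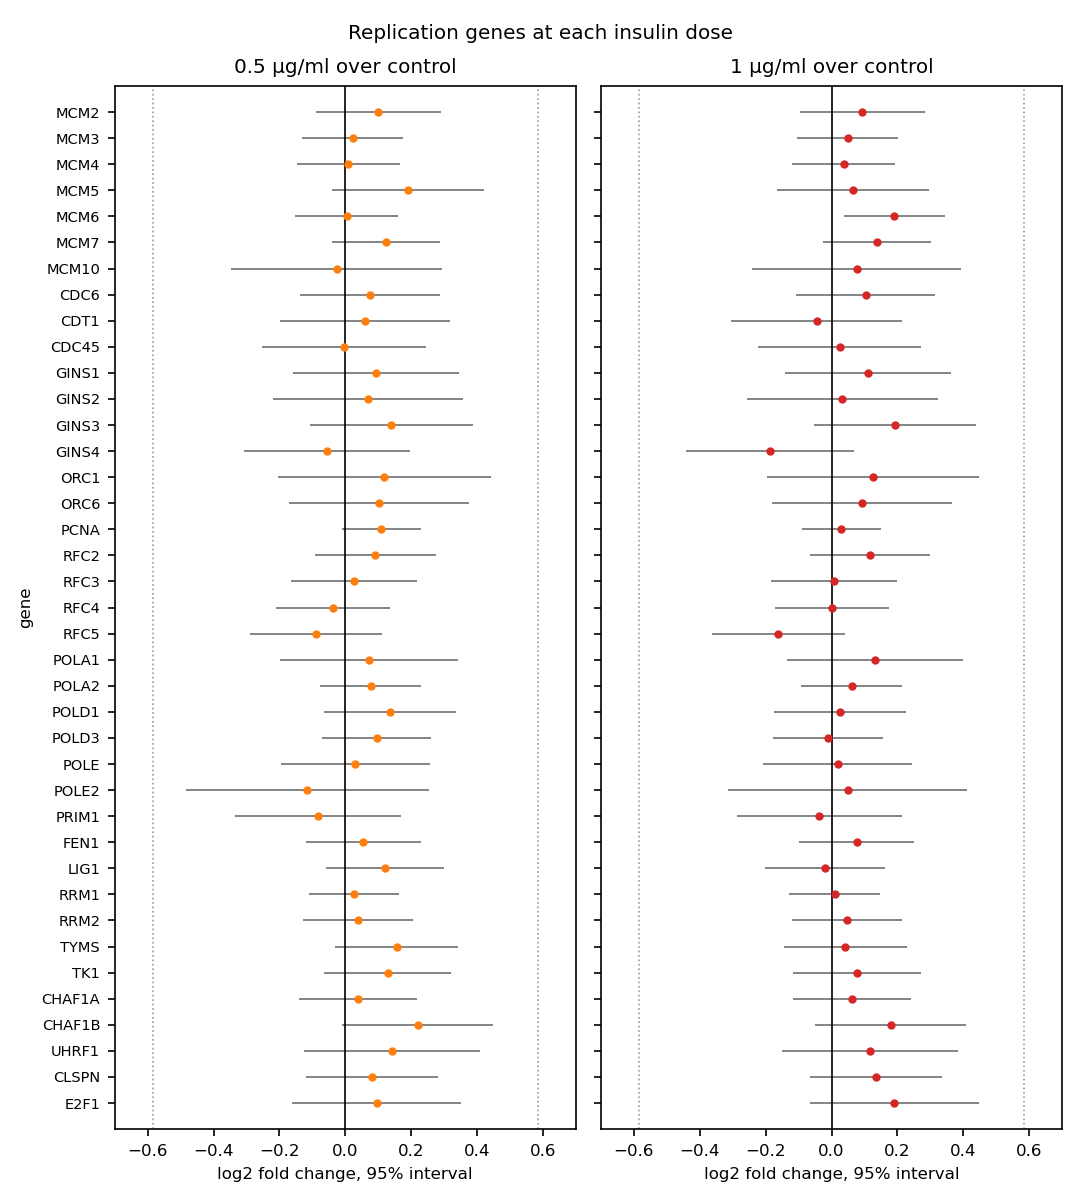
Log2 fold changes of the 39 genes with their 95% intervals from edgeR, for the lower dose over control (left) and the higher dose over control (right), with dotted lines at 1.5-fold. Points lie between -0.19 and 0.22, and of the 39 intervals in each panel all cross 0 except that of MCM6 at the higher dose.

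Between the doses, the edgeR test called 0% of 12665 genes and DESeq2 called 0. An unadjusted p under 0.05 was reached by 714 genes in edgeR (5.64%) and 487 in DESeq2. Of the members 20 of 39 stood above 0, with a median of 0.01. MCM6 again had the smallest p, with the higher-dose values given above set against 37.5, 33.8 and 32.9 CPM at the lower dose (log2 fold change 0.19 ± 0.07, SE, edgeR unadjusted p = 0.0203, adjusted p = 0.850). It was the 1 member at an unadjusted p under 0.05. LIG1, the ligase that seals Okazaki fragments, stood at -0.14 ± 0.09, PCNA at -0.08 ± 0.06, POLD3 at -0.10 ± 0.08, TYMS at -0.11 ± 0.09 and MCM5 at -0.13 ± 0.11 (SE). POLE2 stood at 0.17 ± 0.18 and E2F1 at 0.10 ± 0.12 (SE). No member separated the 2 doses, where 5.85% of all tested genes stood above in every library and 6.31% below. An edgeR test for any difference among the 3 groups called 0% of 12665 genes, where DESeq2 called 1 gene that was no member. An unadjusted p under 0.05 was reached by 561 genes in edgeR (4.43%). MCM6 was the 1 member among the 561 (edgeR unadjusted p = 0.0263, adjusted p = 0.982).

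The members varied most between libraries of one group, and in the same way in each group. The library numbered 1 was the highest of its 3 for 35 members in control, 31 at the lower dose and 34 at the higher dose. For 25 of 39 (64.1%) it was the highest in all 3 groups, against 7.12% of the 12665 tested genes. Earlier results of these data had already shown S phase scores highest in library 1 of each group. These counts therefore describe that pattern and are no separate support for it. The count for libraries 2 and 3 was 0, and library 3 was the lowest in all 3 groups for 12 members (30.8%), against 5.47% of all tested genes. Among the 30 members with at most 10% shared sequence, library 1 was the highest in all 3 groups for 20. The median excess of library 1 over the mean of libraries 2 and 3 was 0.20 on the log2 scale in each group, against 0.00 over all tested genes, and it exceeded the median fold changes between doses.

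UHRF1, which brings maintenance methylation to newly copied DNA, showed this with the widest spread. UHRF1 had 37.3, 27.6 and 29.8 CPM in control libraries 1, 2 and 3, 42.1, 30.2 and 32.1 CPM at the lower dose, and 41.2, 32.0 and 29.3 CPM at the higher dose. Library 1 stood 1.30-fold over the mean of the others in control and 1.35-fold at the lower dose. Its coefficient of variation over the 9 libraries was 16%, the largest of the members, where counting error alone gives 3.87%. RRM2, the regulated subunit of ribonucleotide reductase, had 76.1, 64.0 and 64.0 CPM in control, 78.9, 65.8 and 64.9 CPM at the lower dose, and 76.2, 68.4 and 66.2 CPM at the higher dose. MCM2 had 46.4, 41.8 and 39.1 CPM in control, 51.9, 43.0 and 41.6 CPM at the lower dose, and 51.1, 43.8 and 40.9 CPM at the higher dose. Library 1 was the highest in each group, and all libraries 1 of UHRF1, RRM2 and MCM2 lay above all libraries 2 and 3.

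**Figure D3:**
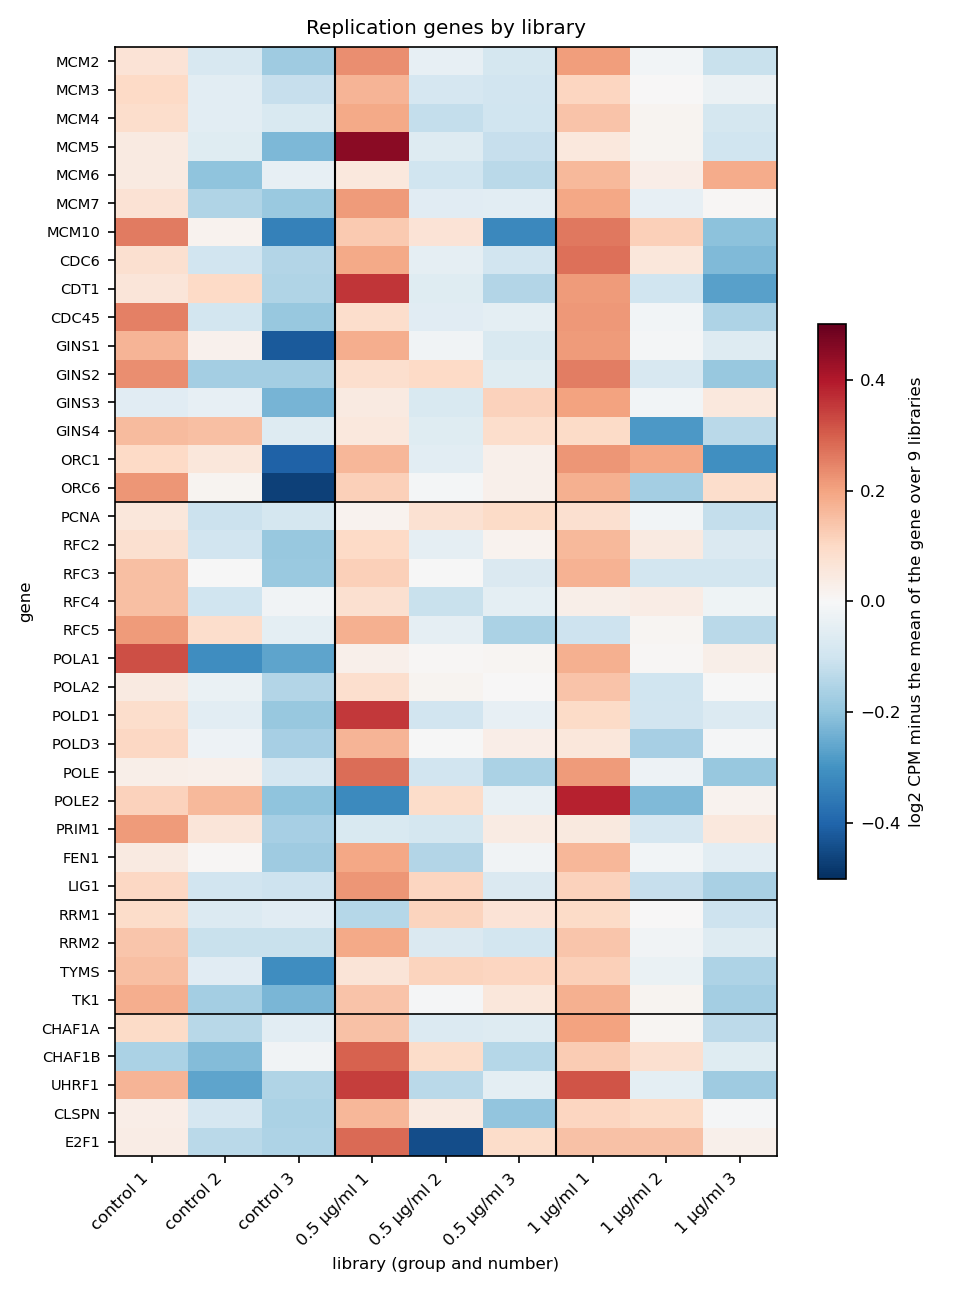
Each of the 39 genes in each of the 9 libraries, as the log2 CPM minus the mean of that gene over the libraries, in colour. The columns of the libraries numbered 1 are high for most members in all 3 groups; in lower dose 1 the 3 members RRM1, POLE2 and PRIM1 lie below their own mean.

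Not every member followed. RRM1 had 125, 112 and 112 CPM in control, 106, 126 and 123 CPM at the lower dose, and 125, 117 and 109 CPM at the higher dose, so lower dose 1 was the lowest of all its libraries. TYMS, PCNA, POLE2, the second subunit of polymerase epsilon, and PRIM1, the primase catalytic subunit, also stood lower in lower dose 1 than in the mean of lower dose 2 and 3. By role, library 1 stood above the mean of the others for 16 of 16 licensing and helicase genes in each group. For 14 fork genes the counts were 14, 11 and 13 in control, the lower and the higher dose, for 4 nucleotide genes 4, 2 and 4, and for 5 chromatin and control genes 4, 5 and 5. By promoter letters, library 1 was the highest in all 3 groups for 12 of 20 members with the E2F letters (60%) and 10 of 15 without (66.7%). Among other tested genes the shares were 10% of 529 with and 6.55% of 9724 without.

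Summed over the 39 genes, expression was 1432, 1270 and 1215 CPM in control, 1474, 1310 and 1305 CPM at the lower dose, and 1488, 1326 and 1270 CPM at the higher dose. For sums, CPM is scaled to the library total without TMM. Each library 1 lay above all libraries 2 and 3 of any group. A score, the mean deviation of the members in log2 CPM from their own means, averaged -0.04 ± 0.14 in control, 0.02 ± 0.11 at the lower dose and 0.02 ± 0.13 at the higher dose (SD, n = 3 each). The groups overlapped, and the pooled SD between libraries of a group was 0.125, larger than either difference from control. Leaving out 1 library moved the median fold change of the members in both directions, and across 0 in some fits. Each such fit leaves the library numbers unequal between the groups. For the lower dose it was 0.07, and it became -0.01 without lower dose 1, with 16 of 39 above 0, and 0.00 without control 3, with 21 above 0. For the higher dose it was 0.06, and it became -0.02 without higher dose 1, with 14 of 39 above 0, and -0.004 without control 3, with 18 above 0. Without control 1 it rose to 0.144 for the lower dose and 0.135 for the higher dose, with 36 of 39 above 0 in each. A fit with the library number added (replicate block) gave 0.08 for the lower dose and 0.06 for the higher dose. With the libraries numbered 2 and 3 alone, a setting added after the data were seen, the median was 0.06 for the lower dose (31 of 39 above 0) and 0.07 for the higher dose (33 of 39). Among libraries of the same number the score was above control at both doses: 0.15 and 0.16 against 0.11 for number 1, -0.04 and -0.02 against -0.06 for number 2, and -0.04 and -0.08 against -0.17 for number 3.

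**Figure D4:**
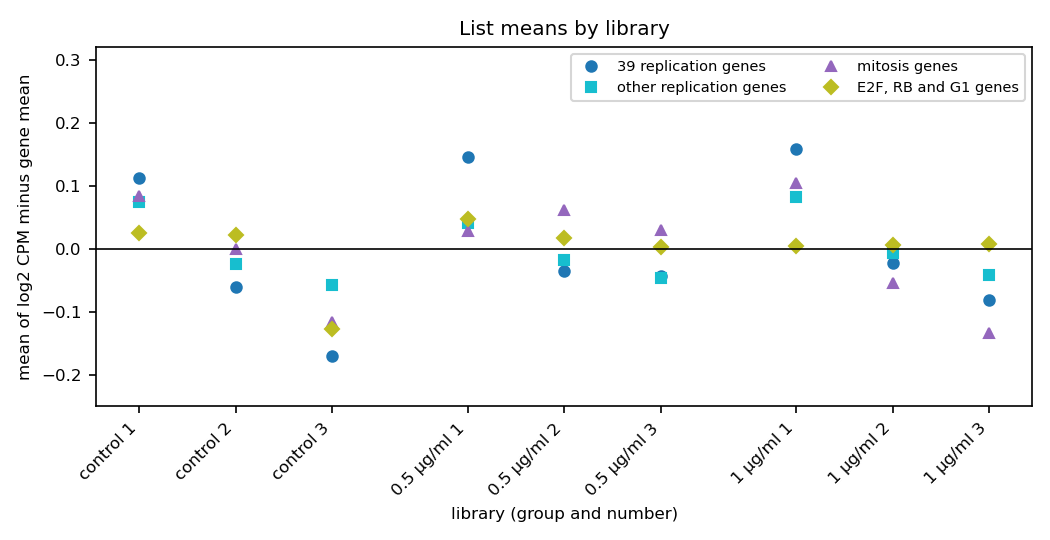
Mean deviation in log2 CPM of the 39 genes, the other replication genes, the mitosis genes and the E2F and RB genes, with a point per list in each of the 9 libraries. The members stand at 0.11, -0.06 and -0.17 in control, 0.15, -0.04 and -0.04 at the lower dose and 0.16, -0.02 and -0.08 at the higher dose, with library 1 the highest each time.

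Split by source, the variance of a member over the 9 libraries lay mostly with the library number. The medians were 64.1% for the number, 9.52% for the insulin group and 23% for the rest, against 23.6%, 20.6% and 46.5% over all tested genes. The number held more than the group in 33 of 39 members (84.6%), against 53.2% of all tested genes. MCM10 and RRM2 were the extremes, with 93.7% for the number. MCM6 held 53.1% for the group and 33.5% for the number, GINS3 46.4% for the group, and RRM1 93.1% for the rest.

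**Figure D5:**
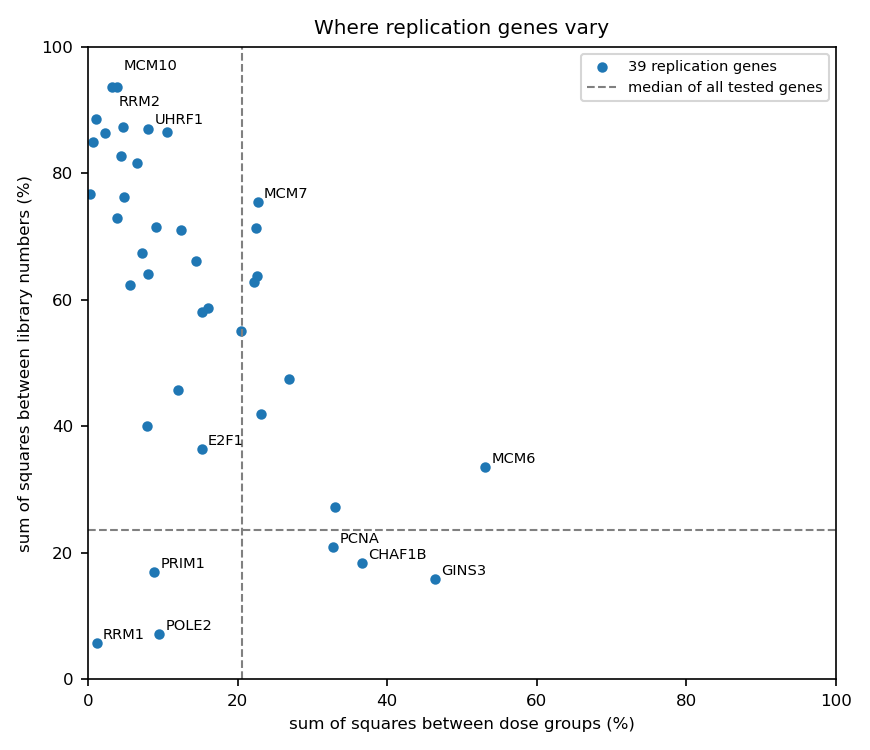
Percent of the variance of each gene over the 9 libraries that lies between insulin groups (horizontal axis) and between library numbers (vertical axis), with a point per member and dashed lines at the medians of all tested genes. Most members lie high on the number axis (median 64.1%) and low on the group axis (median 9.52%), while MCM6 and GINS3 are among those with the largest share between groups.

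Sums of markers of other cell types differed between the same libraries, in both directions. The sums hold all listed markers present in the data, tested or not, in CPM scaled to the library total without TMM. The sum of 13 epithelial markers, mostly KRT18, was highest in library 1 of each group. It was 1926, 1759 and 1772 CPM in control, 1946, 1784 and 1777 CPM at the lower dose, and 1974, 1845 and 1845 CPM at the higher dose. Gene by gene, library 1 was the highest in all 3 groups for 3 of the 8 tested epithelial markers (37.5%). The 8 tested epithelial markers averaged from 0.996 CPM (CLDN4) to 1760 CPM (KRT18), with KRT8 at 55.1 and CDH1 at 4.99 CPM. The others present, EPCAM, CLDN7, KRT5, ESRP1 and OVOL1, had 7, 15, 4, 22 and 5 counts over all libraries. The sum of 14 granulosa markers lay between 397.9 and 442.1 CPM in control, 402 and 430.6 CPM at the lower dose, and 406.3 and 437.7 CPM at the higher dose. Single granulosa markers averaged from 0.19 CPM (AMHR2) to 171 CPM (GATA4). FOXL2 stood at 26.2 CPM, but INHA at 0.656 and HSD17B1 at 0.729 CPM. The sum of the immune markers, 7 of 14 present and 3 tested, was lowest in library 1 of each group, at 101.3, 120.8 and 131.2 CPM in control, 114, 121.2 and 117 CPM at the lower dose, and 107.6, 125 and 123.6 CPM at the higher dose. The sum of the endothelial markers, 8 of 10 present and 3 tested, was also lowest in library 1 of each group, and ran from 53.83 to 68.37 CPM over all libraries. The 12 fibroblast and smooth muscle markers gave no common order of libraries in their sum. Library 1 was the highest in all 3 groups for 3 of the 9 tested (33.3%), TAGLN, ACTA2 and CNN1, while PDGFRA was lowest in library 1 in control and at the higher dose. Library 1 had the lowest total of its group in control and at the higher dose, at 18965722 and 19887010 counts, but not at the lower dose. The part of these markers and of the totals in the members' pattern was not tested.

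Other genes of the pathway, on lists taken from textbook knowledge, followed the members in part. Of 55 other replication genes tested, 18 (32.7%) were highest in library 1 in all 3 groups, of 38 mitotic genes 10 (26.3%), of 29 genes of the E2F and RB step 5 (17.2%) and of 6 replication histones 1 (16.7%). The mitotic genes did not do so in every group: library 1 stood above the mean of libraries 2 and 3 for 34 of 38 in control, 15 of 38 at the lower dose and 38 of 38 at the higher dose. DNMT1, the maintenance methyltransferase that works with UHRF1, had 105, 90.6 and 83.7 CPM in control, 116, 94.1 and 83.8 CPM at the lower dose and 100, 89.9 and 88.4 CPM at the higher dose. CDKN1A, the CDK inhibitor p21, ran the other way. CDKN1A had 721, 826 and 811 CPM in control, 635, 893 and 901 CPM at the lower dose, and 667, 806 and 800 CPM at the higher dose, the lowest of its group in library 1 each time. DNMT1 and CDKN1A were chosen after their values were seen.

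Between doses and control no gene of these lists passed the edgeR test, and their medians lay between -0.03 and 0.11. At the lower dose the median log2 fold change was -0.00 for the other replication genes, 0.02 for the E2F and RB genes, 0.05 for mitosis and 0.11 for the histones. At the higher dose these were 0.01, 0.00, -0.02 and -0.03. At the lower dose ORC3 and ORC4, subunits of the origin recognition complex, stood at -0.19 ± 0.07 and -0.17 ± 0.07 (SE, edgeR adjusted p = 0.764 for both), and RECQL4, a helicase needed to start replication, at 0.26 ± 0.11 (SE). ORC4 had 23.5, 24.3 and 25.0 CPM at the lower dose and 26.5, 26.8 and 28.7 CPM in control, with no overlap. E2F8, a repressive E2F, stood at 0.36 ± 0.16 (SE) at the lower dose, with CDK6 at -0.10 ± 0.05 and CCND2 at 1.20 ± 0.69 (SE). CCND2 was near the floor, with 0 to 13 counts in a library, so its value rests on few reads. It had 0.302, 0.565 and 0.542 CPM at the lower dose and 0.317, 0.296 and 0 CPM in control. Of the mitotic genes INCENP stood at 0.20 ± 0.07, BUB1 at 0.12 ± 0.06 and NUF2 at -0.13 ± 0.07, and of the histones H2AX stood at 0.16 ± 0.09 and H2BC12 at 0.12 ± 0.13 (SE). At the higher dose PRIM2, the second primase subunit, stood at 0.21 ± 0.11 and ORC5 at -0.14 ± 0.11 on the log2 scale (SE). H1-2, a linker histone, had 8.16, 8.64 and 7.69 CPM at the higher dose and 7.45, 5.28 and 6.97 CPM in control. Its groups did not overlap, and the log2 fold change was 0.32 ± 0.15 (SE, edgeR unadjusted p = 0.0416, adjusted p = 1.00). TFDP1, E2F8 and CDKN1B stood at 0.11 ± 0.06, 0.28 ± 0.17 and -0.10 ± 0.06, CDC25C, NUF2 and AURKB at -0.18 ± 0.14, -0.09 ± 0.07 and 0.11 ± 0.10, and H2BC4 at -0.18 ± 0.19 (SE). For the higher against the lower dose, INCENP, a subunit of the chromosomal passenger complex of mitosis, had 65.0, 54.6 and 55.1 CPM at the higher dose and 78.4, 68.3 and 65.7 CPM at the lower dose. Its groups did not overlap, and the log2 fold change was -0.28 ± 0.07 (SE, edgeR adjusted p = 0.850). CENPA and CDCA8 stood at -0.25 ± 0.11 and -0.18 ± 0.08, RFC1, RPA3 and ORC4 at 0.12 ± 0.06, 0.25 ± 0.12 and 0.14 ± 0.07, RB1, CKS1B and CCND1 at 0.13 ± 0.06, -0.13 ± 0.06 and -0.12 ± 0.06, and H1-2 and H2AX at 0.32 ± 0.15 and -0.16 ± 0.09 (SE).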

How the data were processed

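RNA was measured by sequencing in 9 libraries of KGN cells. The authors deposited raw counts per gene symbol and a matching set of FPKM values. Per the submitters' processing notes, the tools included Trimmomatic, HTSeq and DESeq and the build was hg38; their roles, versions, aligner, annotation and strandedness were not given in the sources used here. By comparison, the deposited FPKM values are the counts rescaled: for 11053 of 11053 genes with 50 or more counts everywhere, the implied gene length agreed between libraries within 1%. FPKM was used only to compare levels between genes.

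Counts were filtered with filterByExpr in edgeR 4.0.16 (minimum count 10, minimum total 15), scaled by TMM and fitted over all 9 libraries in R 4.3.3 with limma 3.58.1. The edgeR quasi-likelihood F-test, two-sided, was adjusted by Benjamini-Hochberg over 12665 genes, with calls at an adjusted p under 0.05. A standard error is the absolute log2 fold change over the square root of F. A library's totals allow a count of 0 to hide up to 3 counts, or 0.158 CPM at the smallest total, for counting error only. Libraries of a group differed by more than counting error (chi-square per degree of freedom 2.18 to 8.38), and each was counted as a sample. That spread does not show whether they are separate cultures. The scripts were tested on simulated data.

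The members, the gene lists and the comparison of library numbers were chosen with earlier results of these data known. The genes named are the 6 members of smallest p in each comparison, PCNA, MCM2 to MCM7, E2F1, the members of highest and lowest FPKM, the member of largest change in each role and, in each other list, the 3 genes of smallest p, with others where marked or needed to show the pattern between libraries. Of the genes that this rule names from the other lists, 2 are not reported here. Called genes outside all lists arose in tests of the library number and are not named. Alternatives were DESeq2 1.42.0, RLE size factors, no count filter, 1 CPM in 3 libraries, fits of the 2 groups only, a replicate block, each library left out and, added after the data were seen, only the libraries numbered 2 and 3.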

Additional observations from a re-analysis of the deposited data

How the results depend on the processing

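Under every alternative 0 members were called in the dose comparisons. Without a count filter 6 genes were called at the lower dose, 3 at the higher dose, 4 between the doses and 8 among 3 groups, and with only libraries 2 and 3 the counts were 76, 2 and 77. DESeq2 called 1 gene among 3 groups. Leaving out 1 library gave 0 to 1 gene at the lower dose, 0 to 2 between the doses and 0 to 3 among 3 groups, and moved the members' median log2 fold change from -0.0132 to 0.144 at the lower dose, -0.0215 to 0.135 at the higher dose and -0.078 to 0.0695 between the doses. It also turned, at the lower dose, MCM2 (-0.0058 to 0.168), MCM3 (-0.0687 to 0.0876), MCM4 (-0.0968 to 0.0639), MCM5 (-0.0132 to 0.295), MCM6 (-0.0604 to 0.0594), POLD1 (-0.0193 to 0.218) and E2F1 (-0.064 to 0.276), at the higher dose PCNA (-0.0215 to 0.0825), MCM2 (-0.00248 to 0.162), MCM4 (-0.0245 to 0.092) and MCM5 (-0.00397 to 0.129), and between the doses MCM5 (-0.229 to 0.0791). With libraries 2 and 3 alone MCM3 (-0.00395), MCM4 (-0.0443) and E2F1 (-0.00063) turned at the lower dose, and MCM5 (0.0466) between the doses. The cause was not tested. Libraries with the same number deviated together in part: their correlations ran from -0.01 to 0.16, 1 of 9 over 0.1, and 7 of 9 libraries correlated best with their own number. The replicate block left 0 genes called in each dose comparison, with 971, 343 and 891 at an unadjusted p under 0.05 and a members' median of 0.08, 0.06 and -0.00 (32, 33 and 19 of 39 above 0). An edgeR test of the number within groups called 24 genes and 2 members, UHRF1 and MCM7 (170 and 13 without a count filter, 53 and 5 by DESeq2, 3 to 352 and 0 to 10 with 1 library left out). The comparison of library 1 was chosen because S phase scores had been seen highest there, so its calls are no separate support for that pattern. Library 1 against 2 and 3 called 61 genes and 7 members, all 7 higher (195 and 16 without a filter, 4 to 441 and 0 to 17 with 1 library left out, 4 and 0 without higher dose 1), and the members' median stayed between 0.19 and 0.23. In the other lists it called DNMT1, ASF1B, CTPS1, RECQL4, MYBL2, FOXM1, AURKB and KIF23 higher and CDKN1A lower. With 3 libraries a group, smaller differences than the intervals given were not detectable.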
